A study of Mus musculus with 20 samples.

Results

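The eicosanoid enzymes described here are 10 genes, chosen by name, of the 78409 genes listed in the expression table: Pla2g4a, Ptgs1, Ptgs2, Ptges, Ptges2, Ptges3, Alox5, Alox5ap, Lta4h and Ltc4s. They were measured by bulk RNA sequencing in bone marrow-derived macrophages (BMDMs), which are macrophages grown in culture from marrow cells with medium conditioned by L929 fibroblasts. The marrow came from wildtype female C57BL/6J mice, and the cells were used on day 7 at 200000 cells per well, after 3 washes with PBS and a change to serum-free Opti-MEM. There were 5 treatment groups of 4 libraries each: PBS, and the EV-enriched fraction (EVFx) or the protein-enriched fraction (ProteinFx) of bronchoalveolar lavage fluid. The fluid was taken from RNY1+/+ or RNY1-/- animals in which OVA had induced airway inflammation. RNY1 is a small noncoding Y RNA, and in the RNY1-/- donors of the fluid it had been deleted by CRISPR in the whole animal, so every macrophage library was wildtype and the genotype is that of the donor mice. The study's mice were 7 to 16 weeks old, and the fractions were separated by size-exclusion chromatography and kept at 4°C for 5 days. EVFx was added at 35000000 particles per µL for both genotypes and ProteinFx at 0.75 µg protein per µL for both genotypes. The doses of EVFx and ProteinFx are in different units and are not matched. The duration of treatment is not given in the sources used here. Nothing states that libraries of the same treatment were grown or treated separately, so the p-values measure only the spread between these libraries, which may be technical.

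Prostaglandins and leukotrienes are lipid mediators made from arachidonic acid. A phospholipase A2 releases the fatty acid from membranes, the cyclooxygenases turn it into prostaglandin H2, and terminal synthases make prostaglandin E2 and the other prostanoids from that intermediate. On the other branch 5-lipoxygenase, with the help of its activating protein, makes leukotriene A4, which leukotriene A4 hydrolase turns into leukotriene B4 and leukotriene C4 synthase into the cysteinyl leukotrienes. Macrophages make mediators of both branches, and cyclooxygenase 2 and the microsomal prostaglandin E synthase are known as the inducible enzymes of the prostaglandin E2 route in these cells.

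Levels are given as CPM, the count of a gene relative to the total of its library, scaled so that every library sums to the same number. The libraries were made from the 3′ ends of polyadenylated transcripts and deduplicated by molecular identifier, so a count stands for 1 molecule and levels are not divided by transcript length. Library totals ranged from 2510005 to 8277366 counts with a median of 5456425. The 8 macrophage markers were over 3 counts in every group, and their summed level was between 8620 and 12970 CPM in all 20 libraries. The largest part of the sum was Lyz2, and single markers moved in both directions. The group mean of Lyz2 was 8416 CPM in PBS and 4578 to 5333 CPM in the treated groups. For Adgre1 it was 860 CPM in PBS and 2422 to 3203 CPM in the treated groups. Among the markers of other cells, the neutrophil list summed to 141 to 352 CPM, nearly all from S100a8 and S100a9, with Ly6g at 0 or 1 count per library, and the mast cell and basophil list stayed at or below 1.5 CPM. The platelet list summed to 752 to 1216 CPM, nearly all from Pf4, with 1 or 2 of its 5 markers over 3 counts in a group. The fibroblast list summed to 10.8 to 51.4 CPM, the airway and alveolar epithelium list to 3.26 to 19.5 CPM and the T and B cell list to 0.519 to 9.02 CPM. The part of these cells in the results was not tested. Some libraries stood apart from their group: the distance over log2 CPM of all genes tested was 51.9 to 70.7 from PBS replicate 3 to the other PBS libraries, which were 26.1 to 38.5 from each other, and 49.2 to 60.5 between RNY1-/- ProteinFx replicates 1 and 2 on one side and 3 and 4 on the other, which were 25.9 and 38.8 within each pair. In bulk RNA, fewer cells of a type and less RNA per cell cannot be told apart.

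Against PBS, BMDMs given either fraction from either genotype held more mRNA of cytosolic phospholipase A2 (Pla2g4a) and cyclooxygenase 2 (Ptgs2) and less of the 5-lipoxygenase activating protein (Alox5ap). Prostaglandin E synthase (Ptges) was higher in the 3 comparisons where it passed the level filter. Cyclooxygenase 1 (Ptgs1) was 11.3- and 10.98-fold lower after RNY1+/+ and RNY1-/- EVFx, respectively, and 1.87-fold higher after RNY1-/- ProteinFx. Lta4h, the hydrolase of the leukotriene B4 route, did not pass the test in any of the 4 comparisons. These 4 comparisons share the same 4 PBS libraries, so they are not independent of each other.

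A gene was called a differentially expressed gene (DEG) when edgeR's quasi-likelihood test gave a Benjamini-Hochberg adjusted p under 0.05 over all genes tested and a log2 fold change over 1 in size; genes with a mean under 3 CPM over the 8 libraries of a comparison were not tested. For RNY1+/+ EVFx against PBS, 8 of the 10 enzymes were tested, 3 were DEGs in the higher direction and 1 in the lower, against 8.24% and 8.2% of all 10797 genes tested. For RNY1+/+ ProteinFx, 7 were tested and the counts were again 3 higher and 1 lower, against 8.96% and 12.4% of 10835 genes. For RNY1-/- EVFx, 7 were tested, 4 were higher and 2 lower, against 9.02% and 13.5% of 10729 genes. For RNY1-/- ProteinFx, 6 were tested, 2 were higher and 1 lower, against 6.31% and 7.99% of 10855 genes. By adjusted p alone, without the limit on fold change, 6, 5, 6 and 4 enzymes passed in these comparisons, against 44.5%, 55.2%, 58.3% and 35.7% of all genes. The libraries of 7, 6, 6 and 4 of the tested enzymes did not overlap with PBS, against 43.6%, 46.9%, 52.3% and 30.9% of all genes tested. Ptgs2 and Ptges were near 1 CPM in PBS and entered these tests through their level in the treated libraries. The median log2 fold change over the tested enzymes was 0.45, 0.61, 1.17 and 0.63 for RNY1+/+ EVFx, RNY1+/+ ProteinFx, RNY1-/- EVFx and RNY1-/- ProteinFx, with -0.03 over all genes in each. Scaling by library totals instead of by TMM moved the median of all genes to -0.21, -0.20, -0.27 and -0.098 and the share of higher genes among the DEGs from 50.1% to 37.3%, from 42.0% to 29.4%, from 40.1% to 24.5% and from 44.1% to 37.6%, while no enzyme that passed in either scaling changed direction. Lta4h, which passed in neither, went from 0.04 to -0.20 (adjusted p = 0.133) for RNY1-/- EVFx and from 0.01 to -0.06 (adjusted p = 0.704) for RNY1-/- ProteinFx. With library totals Alox5ap was past the fold limit after RNY1+/+ EVFx too, and Lta4h passed the adjusted p after RNY1+/+ ProteinFx at -0.40 (adjusted p = 0.0106).

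**Figure D1:**
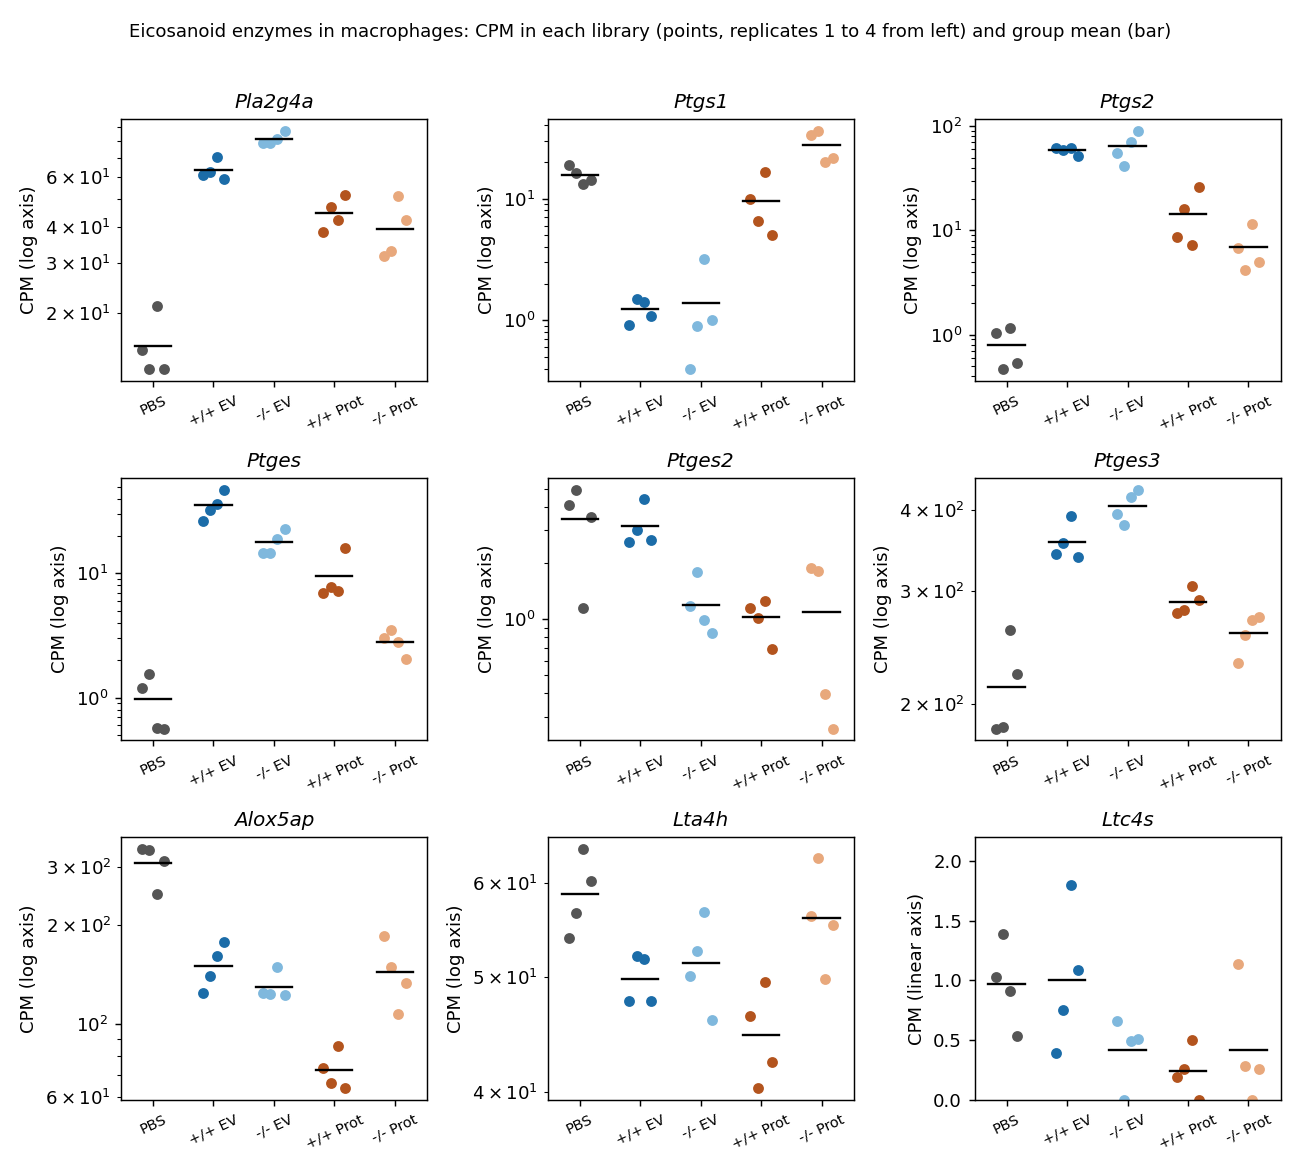
Level of 9 of the 10 enzymes in CPM (vertical axis, log scale except Ltc4s, which is linear) in each library (points) of the 5 groups (horizontal axis), with the group mean as a bar. The Ptgs2 points of the EVFx groups lie between 41.9 and 90.9 CPM and those of PBS at or below 1.14 CPM, and the Ptgs1 points of the EVFx groups lie below all others. Alox5, with at most 2 counts in a library, is not drawn.

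Pla2g4a encodes the cytosolic phospholipase A2 that frees arachidonic acid from membranes, the first step of both branches. Its level in the PBS libraries was 14.8, 12.7, 21.0 and 12.6 CPM in replicates 1 to 4. After RNY1+/+ EVFx it was 61.2, 62.4, 70.5 and 58.8 CPM, and after RNY1-/- EVFx 78.9, 78.9, 81.8 and 87.3 CPM. Every EVFx library thus lay above every PBS library, and the RNY1-/- EVFx libraries were the highest of all 20. RNY1+/+ ProteinFx gave 38.3, 47.1, 42.2 and 52.1 CPM and RNY1-/- ProteinFx 31.6, 32.9, 51.4 and 42.3 CPM, which overlapped with each other and lay above PBS and below the EVFx libraries. Against PBS the difference was 4.72-fold for RNY1+/+ EVFx (log2 fold change 2.24, standard error 0.16, adjusted p = 1.11e-06) and 6.39-fold for RNY1-/- EVFx (log2 fold change 2.68, standard error 0.16, adjusted p = 2.23e-07). For ProteinFx the log2 difference was 1.74 (standard error 0.18, adjusted p = 1.27e-05) for RNY1+/+ and 1.44 (standard error 0.23, adjusted p = 9.89e-04) for RNY1-/-. Pla2g4a rose in all 4 comparisons and was a DEG in each.

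Ptgs1, cyclooxygenase 1, is the form that most cells express without a stimulus. In PBS it was 18.9, 16.4, 13.3 and 14.2 CPM. After RNY1+/+ EVFx it was 0.905, 1.501, 1.40 and 1.09 CPM, and after RNY1-/- EVFx 0.394, 0.894, 3.20 and 1.01 CPM. The 8 EVFx libraries did not reach the lowest PBS library. The summed counts were 35 and 28 in the EVFx groups against 336 in PBS. Ptgs1 fell by 3.50 on the log2 scale after RNY1+/+ EVFx (standard error 0.21, adjusted p = 2.95e-07) and by 3.46 after RNY1-/- EVFx (standard error 0.39, adjusted p = 2.57e-05). ProteinFx gave another picture by donor genotype: 9.95, 6.59, 16.6 and 5.03 CPM with RNY1+/+ and 33.4, 36.2, 19.9 and 21.5 CPM with RNY1-/-. The RNY1+/+ ProteinFx libraries overlapped with PBS, with replicate 3 among the PBS values and the other 3 below them, whereas every RNY1-/- ProteinFx library was above every PBS library. On the log2 scale Ptgs1 differed from PBS by -0.57 (standard error 0.30, adjusted p = 0.121) for RNY1+/+ ProteinFx, which did not pass, and 0.90 (standard error 0.20, adjusted p = 0.00756) for RNY1-/- ProteinFx, which passed the adjusted p but not the fold limit.

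The Ptgs1 values depended on which genes entered the fit and on single libraries in the ProteinFx groups. With edgeR's filterByExpr alone, without the limit of 3 CPM, the difference of RNY1+/+ ProteinFx from PBS was -0.56 (adjusted p = 0.127). In a fit of all genes with a count it was -0.59 (adjusted p = 0.0269). Without RNY1+/+ ProteinFx replicate 3 it was -0.95 (adjusted p = 0.0094), and without PBS replicate 3 it was -0.65 (adjusted p = 0.046). Without RNY1-/- ProteinFx replicates 1 and 2, the 2 libraries with the highest Ptgs1, the rise was 0.52 (adjusted p = 0.075), and without replicates 3 and 4 it was 1.17 (adjusted p = 0.0033). The summed level of the 5 eosinophil markers was, like Ptgs1, lowest after EVFx, but highest after RNY1+/+ ProteinFx: it was 7.17 to 13.5 CPM in PBS, 0.80 to 1.42 after RNY1+/+ EVFx, 1.31 to 2.46 after RNY1-/- EVFx, 14.7 to 21.1 after RNY1+/+ ProteinFx and 12.3 to 17.1 after RNY1-/- ProteinFx. Nearly all of that came from Ccr3, and the defining markers Epx and Il5ra were at 0 counts in the 20 libraries. The part of these markers in the Ptgs1 result was not tested.

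Ptgs2, cyclooxygenase 2, is the inducible form and sits next to Pla2g4a as the neighbouring coding gene on mouse chromosome 1 in the RefSeq annotation. It was close to absent in PBS, at 1.02, 0.463, 1.14 and 0.534 CPM, or 16 counts in the 4 libraries. After RNY1+/+ EVFx it was 62.3, 59.8, 61.3 and 51.3 CPM and after RNY1-/- EVFx 55.8, 41.8, 71.4 and 90.9 CPM. The spread was wider in the RNY1-/- group, whose replicates 2 and 4 were the lowest and the highest of the 8 EVFx libraries. The ProteinFx libraries were lower, at 8.61, 15.97, 7.29 and 25.9 CPM for RNY1+/+ and 6.80, 4.20, 11.6 and 4.93 CPM for RNY1-/-. Even the lowest of them, at 4.20 CPM, was above the highest PBS library. Against PBS, Ptgs2 rose 85.7-fold after RNY1+/+ EVFx (log2 fold change 6.42, standard error 0.21, adjusted p = 6.41e-09) and 99.2-fold after RNY1-/- EVFx (log2 fold change 6.63, standard error 0.37, adjusted p = 1.34e-07), and the ratio of pooled counts, each per pooled library total, was 77.8 and 84.2 with 95% exact counting intervals of 47.8 to 136 and 51.7 to 148. After ProteinFx it rose 21.2-fold with RNY1+/+ (log2 fold change 4.40, standard error 0.51, adjusted p = 3.30e-05) and 8.73-fold with RNY1-/- (log2 fold change 3.13, standard error 0.44, adjusted p = 4.97e-04). The counting intervals cover counting error only.

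The stretches below are shown because Ptgs2 and Ptges changed by the largest folds of the 10 enzymes, and they hold the letters of factors known to act on inflammatory promoters. They are 30-base stretches of the 300-base RefSeq windows from 250 bases before to 50 bases after the annotated start, on build GRCm38.p6, written 5′ to 3′ on the strand of the gene, and capitals mark the match described, each motif having been searched on both strands. The Ptgs2 stretches are at chr1:150100031-150100060, with the motif 12 bases after the start, and chr1:150099951-150099980, with the motif 69 bases before it, both on the plus strand. The Ptges stretch is at chr2:30903333-30903362 on the minus strand, with the motif 53 bases before the start.
Ptgs2 cAMP response element core: agagtcaccactACGTCAcgtggagtccgc
Ptgs2 C/EBP letters: cgctgcggttcTTGCGCAActcactgaagc
Ptges GC box: ggtgatcagggtGGGCGGggagtgggcggg

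The first Ptgs2 stretch reads TGACGT, the core of the cAMP response element, on the opposite strand, and 7.51% of the 32851 windows of this length in the reference hold it. The second matches TTNNGNAA, the letters used here for C/EBP, on both strands, and 40.7% of all windows hold that. GGGCGG, the GC box, was in 35.7% of all windows. The 10 windows of the enzymes covered 9 of them and not Alox5ap. The cAMP response element core was in the window of Ptgs2 alone, the C/EBP letters were in those of Pla2g4a, Ptgs2, Ptges and Ptges2, and the GC box in those of Ptgs2, Ptges, Ptges3 and Alox5. TATAAA was in a window of Pla2g4a (13.6% of all windows), on the opposite strand and 200 bases before its start. This was another window than the one of Pla2g4a with the C/EBP letters. The NF-kB motif, the AP-1 letters TGANTCA and the interferon-stimulated response element were in none of the enzymes' windows (4.5%, 7.81% and 3.44% of all windows). A match is a description of the letters and not evidence of binding.

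The 2 cyclooxygenase genes moved in opposite directions after EVFx, and the share of Ptgs2 in their summed counts describes this within each library. It was 2.75% to 7.94% in the 4 PBS libraries, with a mean of 4.86%, and 97.6% to 98.6% after RNY1+/+ EVFx and 95.7% to 99.3% after RNY1-/- EVFx, with a mean of 97.95% in both. After RNY1+/+ ProteinFx the 4 libraries were spread from 30.5% to 83.7%, with a mean of 57.9% ± 23.9 (SD, n = 4). After RNY1-/- ProteinFx they were between 10.4% and 36.7%, with a mean of 20.7% ± 11.3. The EVFx libraries did not overlap with any other group, and each treated library was above each PBS library. Between the ProteinFx groups the libraries overlapped, since RNY1+/+ replicate 3 at 30.5% was below RNY1-/- replicate 3 at 36.7%.

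**Figure D2:**
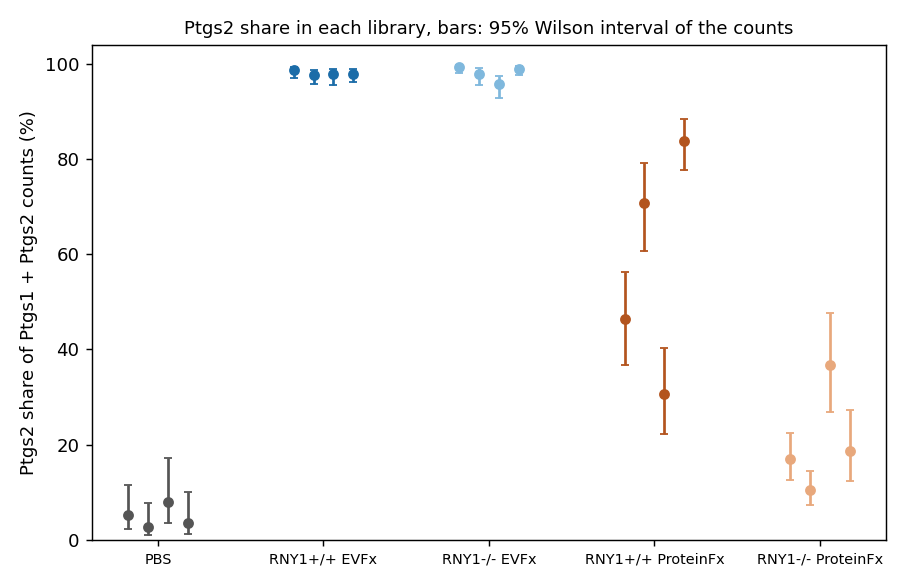
Ptgs2 as a percentage of the summed Ptgs1 and Ptgs2 counts (vertical axis) in each library of the 5 groups (horizontal axis), with the 95% Wilson interval of each library as a bar (replicates 1 to 4 from left), which covers counting error only. PBS libraries lie at or below 7.94%, EVFx libraries at or above 95.7%, and ProteinFx libraries between 10.4% and 83.7%.

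Ptges, the inducible microsomal prostaglandin E synthase, makes prostaglandin E2 from the product of the cyclooxygenases. PBS libraries held 1.19, 1.54, 0.572 and 0.564 CPM. RNY1+/+ EVFx gave the highest values, 26.3, 32.2, 36.5 and 47.0 CPM, and RNY1-/- EVFx gave 14.6, 14.6, 19.01 and 22.7 CPM. These groups did not overlap, with every RNY1-/- EVFx library below every RNY1+/+ EVFx library. RNY1+/+ ProteinFx gave 6.99, 7.77, 7.29 and 16.1 CPM, where replicate 4 stood above the other 3, and RNY1-/- ProteinFx gave 3.02, 3.47, 2.79 and 2.03 CPM, below all of them and above all of PBS. The group means fell in the order RNY1+/+ EVFx, RNY1-/- EVFx, RNY1+/+ ProteinFx, RNY1-/- ProteinFx and PBS, at 35.5 ± 8.74, 17.8 ± 3.91, 9.53 ± 4.38, 2.83 ± 0.603 and 0.969 ± 0.485 CPM (SD, n = 4), and of these neighbours only RNY1-/- EVFx and RNY1+/+ ProteinFx had libraries that overlapped. Against PBS, Ptges rose 40.2-fold after RNY1+/+ EVFx (log2 fold change 5.33, standard error 0.31, adjusted p = 1.87e-07), 20.9-fold after RNY1-/- EVFx (log2 fold change 4.39, standard error 0.32, adjusted p = 9.69e-07) and 10.96-fold after RNY1+/+ ProteinFx (log2 fold change 3.45, standard error 0.43, adjusted p = 5.05e-05). For RNY1-/- ProteinFx its mean was under the level filter, and a fit of all genes without the filter put it at 1.65 on the log2 scale (standard error 0.43, adjusted p = 0.0016). Ptges had fractional counts in 15 of 20 libraries, which come from reads that map to more than 1 place, so part of its count is uncertain.

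Ptges2 and Ptges3, the other prostaglandin E synthases, are expressed in most cells, and Ptges3 is also known as p23, a cochaperone of Hsp90. Ptges2 was low, with 239 counts in all 20 libraries, 77 of them in PBS. It was tested against PBS only for RNY1+/+ EVFx, where its level of 2.59, 3.00, 4.40 and 2.66 CPM overlapped with the PBS values of 4.10, 4.94, 1.14 and 3.56 CPM (log2 fold change -0.02, standard error 0.34, adjusted p = 0.97). In the other 3 groups the ratio of pooled counts to PBS was 0.342 for RNY1-/- EVFx, 0.279 for RNY1+/+ ProteinFx and 0.369 for RNY1-/- ProteinFx, with 95% counting intervals of 0.216 to 0.527, 0.159 to 0.465 and 0.225 to 0.585, and in each of them the libraries overlapped with PBS through PBS replicate 3. The fit of all genes with a count gave log2 fold changes of -1.28, -1.63 and -1.36 there (adjusted p = 0.00276, 3.91e-04 and 0.00664). Ptges3 was the most abundant of the 3 synthases, at 183, 184, 260 and 223 CPM in PBS. It was 341, 356, 391 and 338 CPM after RNY1+/+ EVFx and 394, 379, 419 and 430 CPM after RNY1-/- EVFx, both above all PBS libraries. The log2 difference was 0.92 (standard error 0.13, adjusted p = 1.60e-04) and 1.17 (standard error 0.13, adjusted p = 2.55e-05), and for RNY1+/+ ProteinFx, with 276, 280, 305 and 290 CPM, it was 0.61 (standard error 0.13, adjusted p = 0.00194). RNY1-/- ProteinFx, at 232, 256, 270 and 273 CPM, overlapped with PBS through PBS replicate 3, and its difference of 0.35 (standard error 0.14, adjusted p = 0.0728) did not pass. Without that PBS library it was 0.45 (adjusted p = 0.014). With trends of the fold changes on transcript GC content and length removed, Ptges3 was 0.76 (adjusted p = 1.55e-05), 0.83 (adjusted p = 8.80e-06), 0.26 (adjusted p = 0.0332) and 0.05 (adjusted p = 0.739) for RNY1+/+ EVFx, RNY1-/- EVFx, RNY1+/+ ProteinFx and RNY1-/- ProteinFx. Ptges3 had fractional counts in 16 of 20 libraries and a processed pseudogene listed under its own entry with 126 counts, so a part of its count may be shared.

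On the leukotriene side, Alox5, the 5-lipoxygenase itself, had 5 counts in all 20 libraries and at most 2 in one. The lowest measurable number was taken as 3 counts, which stands for 0.362 CPM in the deepest and 1.20 CPM in the shallowest library. Alox5 was thus not measurable in any group, and no fold is given for it. Alox5ap, which encodes the protein that presents arachidonic acid to 5-lipoxygenase, was in contrast well expressed, at 341, 338, 248 and 314 CPM in PBS. It was 124, 140, 161 and 178 CPM after RNY1+/+ EVFx and 125, 123, 149 and 123 CPM after RNY1-/- EVFx. The lowest values were those of RNY1+/+ ProteinFx, 73.3, 66.4, 85.7 and 64.0 CPM, and those of RNY1-/- ProteinFx were 186, 149, 107 and 134 CPM. No treated library reached the lowest PBS library. Alox5ap fell 3.82-fold after RNY1+/+ ProteinFx (log2 fold change -1.93, standard error 0.14, adjusted p = 5.66e-07). The log2 fold changes of the other groups were close to 1 in size, at -0.86 (standard error 0.14, adjusted p = 4.53e-04) for RNY1+/+ EVFx, -1.02 (standard error 0.12, adjusted p = 4.91e-05) for RNY1-/- EVFx and -1.04 (standard error 0.17, adjusted p = 0.00101) for RNY1-/- ProteinFx, so that the first was not a DEG and the others were. The fold changes of all genes against PBS ran with transcript GC content (Spearman's rho across genes of -0.093 for RNY1+/+ EVFx and -0.42 to -0.49 for the other groups). With the trends on GC content and length removed, all 4 remained under an adjusted p of 0.05, at -0.81 (adjusted p = 2.74e-05), -0.70 (adjusted p = 1.80e-05), -1.61 (adjusted p = 1.29e-08) and -0.74 (adjusted p = 2.65e-04) in the order RNY1+/+ EVFx, RNY1-/- EVFx, RNY1+/+ ProteinFx, RNY1-/- ProteinFx, and only RNY1+/+ ProteinFx stayed past the fold limit.

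Lta4h encodes leukotriene A4 hydrolase, which makes leukotriene B4. It was 53.9, 56.5, 64.0 and 60.1 CPM in PBS, 47.7, 52.0, 51.8 and 47.7 CPM after RNY1+/+ EVFx and 46.3, 40.3, 49.5 and 42.3 CPM after RNY1+/+ ProteinFx. In both of these groups every library was below every PBS library in CPM. The log2 fold changes, which also scale for library composition, were -0.06 (standard error 0.10, adjusted p = 0.659) and -0.23 (standard error 0.11, adjusted p = 0.106). RNY1-/- EVFx gave 50.04, 52.6, 56.7 and 45.9 CPM and RNY1-/- ProteinFx 56.3, 62.9, 49.8 and 55.2 CPM, with differences from PBS of 0.04 (standard error 0.10, adjusted p = 0.729) and 0.01 (standard error 0.11, adjusted p = 0.969). The 95% intervals of the 4 differences lay between -0.47 and 0.27. With the GC and length trends removed the values were -0.25 (adjusted p = 0.0131), -0.27 (adjusted p = 0.0151), -0.56 (adjusted p = 2.91e-04) and -0.28 (adjusted p = 0.0433) for RNY1+/+ EVFx, RNY1-/- EVFx, RNY1+/+ ProteinFx and RNY1-/- ProteinFx, so the calls for Lta4h turn on that setting. Ltc4s, the synthase of leukotriene C4, had 71 counts in all 20 libraries and 0 to 9 in one, 21 of them in PBS, and it passed the level filter in no comparison. Its ratio of pooled counts to PBS was 0.946, 0.418, 0.215 and 0.486 for RNY1+/+ EVFx, RNY1-/- EVFx, RNY1+/+ ProteinFx and RNY1-/- ProteinFx, with counting intervals of 0.515 to 1.76, 0.176 to 0.927, 0.0537 to 0.637 and 0.196 to 1.11. The fit of all genes with a count put RNY1+/+ ProteinFx at -1.93 (adjusted p = 0.0372) against PBS and -2.08 (adjusted p = 0.00831) against RNY1+/+ EVFx. Its RNY1+/+ ProteinFx libraries held only 0 to 2 counts, and no other comparison passed in that fit.

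**Figure D3:**
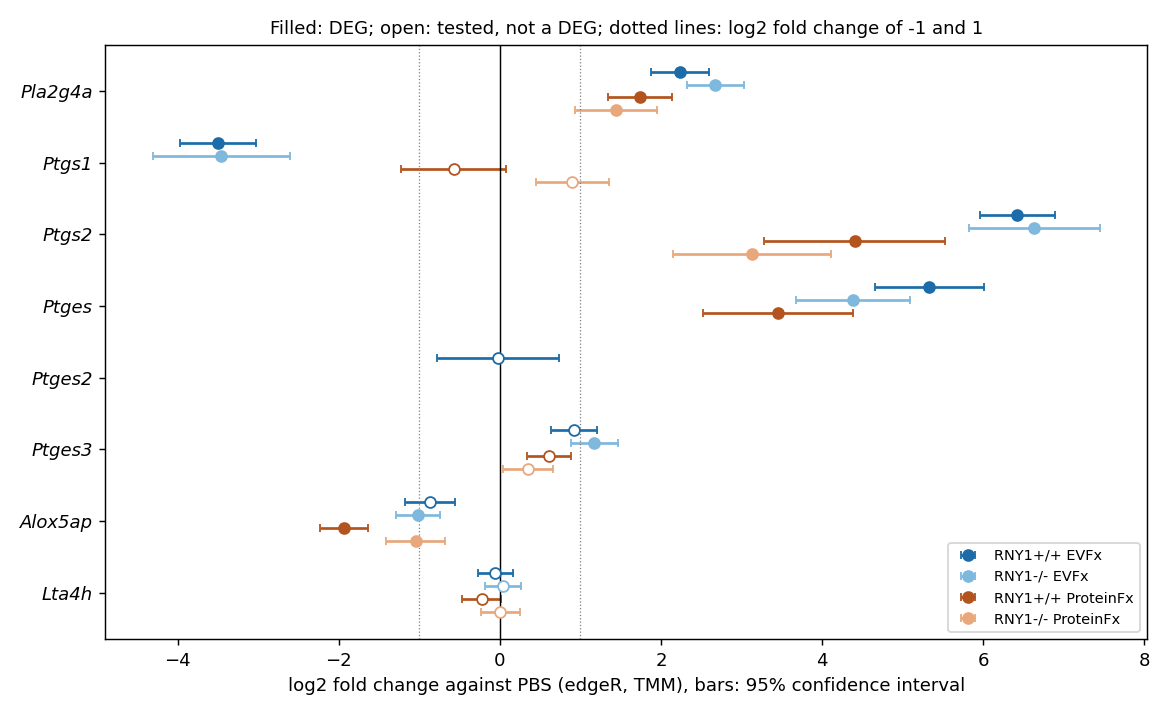
Log2 fold change against PBS (horizontal axis) of the enzymes tested (vertical axis) in the 4 treated groups (colours), with the 95% interval of the edgeR fit as a bar. Ptgs2, Ptges and Pla2g4a lie to the right of 0 wherever tested, Alox5ap lies to the left in the 4 groups, and Ptgs1 lies at -3.50 and -3.46 for EVFx but at -0.57 and 0.90 for ProteinFx.

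The macrophages' response to fractions of RNY1-/- donors was next compared with that to fractions of RNY1+/+ donors. The sources used here do not state how many separate preparations of each fraction were used, so donor genotype and preparation cannot be told apart. Given EVFx at equal particle numbers, BMDMs held 1.93-fold less Ptges with RNY1-/- than with RNY1+/+ EVFx (log2 fold change -0.95, standard error 0.19, adjusted p = 0.00156) and more Pla2g4a (log2 fold change 0.44, standard error 0.08, adjusted p = 9.14e-04), and in both genes the libraries of the genotypes did not overlap. Ptges3 was slightly higher (log2 fold change 0.26, standard error 0.08, adjusted p = 0.0162), with libraries that overlapped. Ptgs2 did not pass, at 0.22 (standard error 0.19, adjusted p = 0.353) with a 95% interval of -0.19 to 0.63, nor did Alox5ap (-0.15, adjusted p = 0.269) or Lta4h (0.11, adjusted p = 0.241). No enzyme was a DEG by edgeR or by DESeq2, while 0.378% of the 10321 genes tested were higher and 1.98% lower by edgeR; 3 of the 6 tested enzymes had an unadjusted p under 0.05. These 3 also passed the adjusted p, against 52.1% of all genes, and 2 of the 6 did not overlap, against 44.6% of all genes. Ptgs1 was too low in both EVFx groups to be tested. Ptges2 was 1.18, 1.79, 0.985 and 0.841 CPM with RNY1-/- against 2.59, 3.00, 4.40 and 2.66 CPM with RNY1+/+, without overlap but under the level filter, and the fit of all genes gave -1.28 (standard error 0.32, adjusted p = 5.89e-04).

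In this comparison the fold changes of all genes ran with GC content (Spearman's rho -0.65 across genes, which are not independent replicates), scaling by library totals moved the share of higher genes among the DEGs from 16.05% to 6.88%, and the transcripts of the enzymes ranged from 40.0% GC for Ptgs2 to 61.0% for Ltc4s. With the GC and length trends removed, Ptges was -0.65 (adjusted p = 0.0151) and Pla2g4a 0.27 (adjusted p = 0.0119), both smaller, and Ptges3 at 0.06 (adjusted p = 0.506) no longer passed. Ptgs2 at -0.15, Alox5ap at 0.12 and Lta4h at -0.03 then had the opposite sign (adjusted p = 0.531, 0.396 and 0.823), and they passed in neither fit. With filterByExpr alone Ptges3 was 0.25 (adjusted p = 0.0245), and in a fit of all genes with a count 0.22 (adjusted p = 0.0726). Ptges3 also lost its call without RNY1-/- EVFx replicate 4, at 0.19 (adjusted p = 0.077), and Ptgs2 gained one without RNY1-/- EVFx replicate 2, at 0.39 (adjusted p = 0.045).

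Given ProteinFx at equal protein, the genotypes differed in 3 enzymes. Ptgs1 was 2.85-fold higher with RNY1-/- than with RNY1+/+ ProteinFx (log2 fold change 1.51, standard error 0.29, adjusted p = 0.0095), Ptges was 3.54-fold lower (log2 fold change -1.82, standard error 0.33, adjusted p = 0.00581) and Alox5ap was higher (log2 fold change 0.91, standard error 0.15, adjusted p = 0.00312). The 4 libraries of each genotype did not overlap in any of these genes, with Ptgs1 at or above 19.9 CPM against at most 16.6, Ptges at or below 3.47 CPM against at least 6.99, and Alox5ap at or above 107 CPM against at most 85.7. For Ptgs2 the difference was -1.30 (standard error 0.41, adjusted p = 0.0909), which did not pass, with a 95% interval of -2.19 to -0.41 and libraries that overlapped. Its call turned on which genes entered the fit. With edgeR's filterByExpr alone, without the limit of 3 CPM, the value was -1.31 (standard error 0.41, adjusted p = 0.0903). In a fit of all genes with a count it was -1.27 (standard error 0.22, adjusted p = 5.48e-07). Pla2g4a (-0.30, adjusted p = 0.394), Ptges3 (-0.24, adjusted p = 0.222) and Lta4h (0.25, adjusted p = 0.237) did not pass. Ptgs1 was thus the DEG in the higher direction and Ptges the one in the lower, against 0.659% and 1.17% of the 10471 genes tested. By adjusted p alone 3 passed, against 5.57% of all genes, and 5 of the 7 tested enzymes did not overlap, against 14.2% of all genes.

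Removing the GC and length trends left these values close to where they were, at 1.48 (adjusted p = 0.00254) for Ptgs1, -1.89 (adjusted p = 0.00237) for Ptges and 0.86 (adjusted p = 4.14e-04) for Alox5ap. Scaling by library totals moved the share of higher genes among all DEGs from 36.1% to 50.5%. The values also depended on which libraries were kept. Over all alternatives, single libraries left out included, Ptgs1 was 1.13 to 1.88, Ptges -2.07 to -1.40, Alox5ap 0.71 to 1.08 and Ptgs2 -1.60 to -0.80. The highest adjusted p of edgeR or DESeq2 was 0.0493, 0.0197, 0.0162 and 0.362 in that order. Without RNY1-/- ProteinFx replicates 1 and 2 the difference was 1.13 for Ptgs1 (adjusted p = 0.049), -2.07 for Ptges (adjusted p = 0.020) and 0.71 for Alox5ap (adjusted p = 0.0047). Without replicates 3 and 4 it was 1.78, -1.71 and 1.08 for these genes, and Ptgs2 then passed at -1.60 (adjusted p = 0.017). Leaving out replicate 3 alone put Ptgs2 at -1.59 (adjusted p = 0.026).

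**Figure D4:**
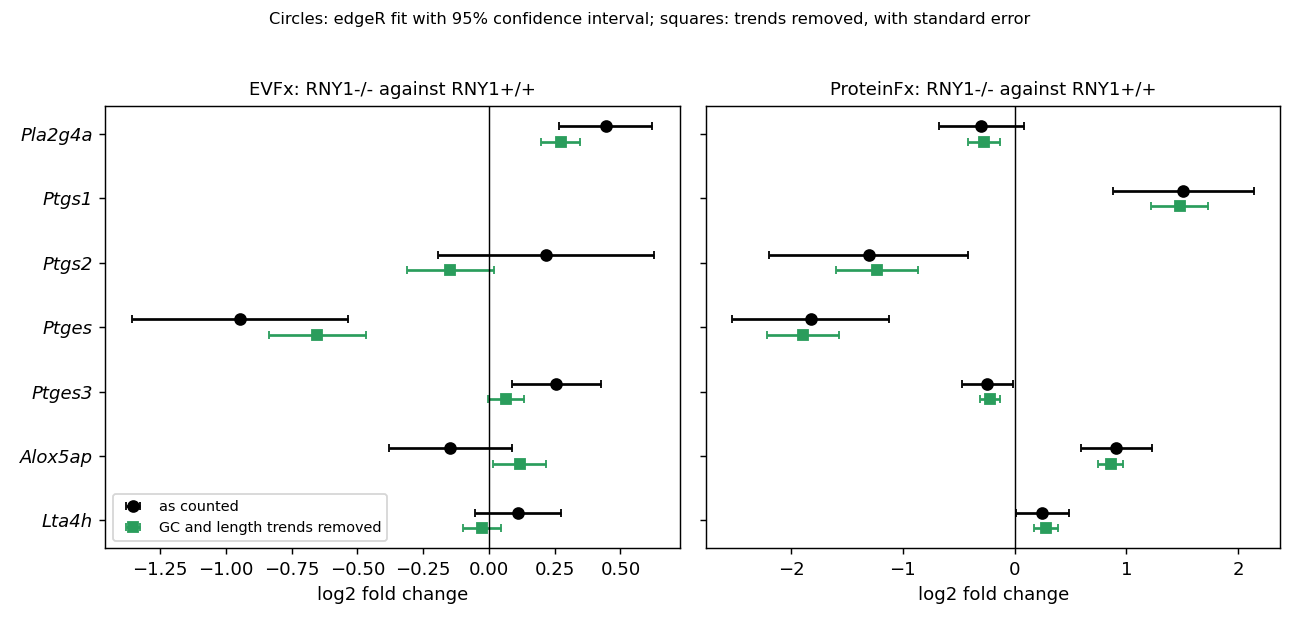
Log2 fold change of RNY1-/- against RNY1+/+ (horizontal axis) for EVFx and for ProteinFx in each tested enzyme (vertical axis). Circles give the edgeR estimate with its 95% interval, and squares the estimate with GC and length trends removed with its standard error. Ptges lies to the left of 0 with both fractions, while Alox5ap lies at -0.15 for EVFx and 0.91 for ProteinFx.

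Whether the effect of donor genotype differed between the fractions was tested as an interaction, the log2 difference in ProteinFx minus that in EVFx, over the 16 fraction-treated libraries. Alox5ap had a positive interaction of 1.06 (standard error 0.19, adjusted p = 0.0026) and Ptgs2 a negative one of -1.56 (standard error 0.49, adjusted p = 0.022), and these were the 2 enzymes past both limits, 1 in each direction, against 5.33% of all 10445 genes in the higher and 2.46% in the lower direction. Pla2g4a at -0.75 (standard error 0.20, adjusted p = 0.0112) and Ptges3 at -0.50 (standard error 0.13, adjusted p = 0.00984) passed the adjusted p only, with which 33% of all genes passed. For Ptges the interaction was -0.89 (standard error 0.42, adjusted p = 0.104) and for Ptgs1 1.49 (standard error 0.68, adjusted p = 0.0923), and neither passed. With filterByExpr alone they were -0.89 and 1.49 (adjusted p = 0.109 and 0.0963), and Ptges3 was -0.50 (adjusted p = 0.0112). In a fit of all genes with a count both passed, at -0.79 (standard error 0.27, adjusted p = 0.0371) for Ptges and 1.58 (standard error 0.41, adjusted p = 0.00257) for Ptgs1. In that fit Ptges3 at -0.42 (adjusted p = 0.0736) no longer passed. Genes' interaction values ran with GC content (rho 0.59), and scaling by library totals moved the share of higher genes among those past both limits from 68.4% to 87.9%. With the GC and length trends removed Alox5ap was 0.76 (adjusted p = 0.0046), Pla2g4a -0.54 (adjusted p = 0.0247), Ptges -1.24 (adjusted p = 0.0431), Ptgs2 -1.10 (adjusted p = 0.0746) and Ptges3 -0.27 (adjusted p = 0.0707). Ptgs2 also lost its call without RNY1+/+ ProteinFx replicate 4 (-1.06, adjusted p = 0.085) or without RNY1-/- ProteinFx replicate 2 (-1.31, adjusted p = 0.076), and Ptgs1 gained one without RNY1-/- EVFx replicate 3 (2.14, adjusted p = 0.028) or without RNY1+/+ ProteinFx replicate 3 (1.86, adjusted p = 0.026).

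Set beside each other within a genotype, at doses that are not matched, ProteinFx libraries held less Ptgs2 and Ptges and more Ptgs1 than EVFx libraries. For RNY1+/+ the log2 difference of ProteinFx from EVFx was 2.93 (standard error 0.37, adjusted p = 8.05e-06) for Ptgs1, -1.98 (standard error 0.25, adjusted p = 9.25e-06) for Ptgs2, -1.84 (standard error 0.24, adjusted p = 1.24e-05) for Ptges and -1.06 (standard error 0.12, adjusted p = 2.44e-06) for Alox5ap, which were the 4 DEGs among 7 tested enzymes (1 higher and 3 lower), against 6.71% of 10444 genes higher and 6.82% lower. For RNY1-/- it was 4.40 (standard error 0.37, adjusted p = 2.35e-06) for Ptgs1, -3.54 (standard error 0.32, adjusted p = 4.31e-06) for Ptgs2, -2.75 (standard error 0.23, adjusted p = 2.60e-06) for Ptges and -1.24 (standard error 0.16, adjusted p = 8.85e-05) for Pla2g4a, again 1 higher and 3 lower of 7, against 4.98% and 4.05% of 10418 genes. By adjusted p alone 6 enzymes passed for RNY1+/+ and 5 for RNY1-/-, against 63.3% and 29.2% of all genes. In the 8 differences above the libraries of the 2 fractions did not overlap, and 6 of the 7 tested enzymes did not overlap for RNY1+/+ and 5 of 7 for RNY1-/-, against 55% and 33% of all genes. For Alox5ap and RNY1-/- fractions the difference was -0.01 (adjusted p = 0.967) against -1.06 for RNY1+/+, and the test of these 2 values against each other is the interaction given above. Lta4h passed in neither genotype (-0.16, adjusted p = 0.137, and -0.02, adjusted p = 0.89). With library totals the RNY1-/- values were 0.16 for Alox5ap (adjusted p = 0.432) and 0.14 for Lta4h (adjusted p = 0.333). Scaling by library totals moved the share of higher genes among all DEGs from 55.2% to 68.9% for RNY1-/-. Since particle number and protein mass are different measures of dose, fraction and dose cannot be told apart.

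Beyond the 10 enzymes, 72 other genes of arachidonic acid release, eicosanoid synthesis, breakdown, signalling and handling were listed by role. Of these, 38 were tested in at least 1 comparison with PBS, 29 were under 1 CPM in every group, and 28 were DEGs in at least 1 of the 4 comparisons. For RNY1+/+ EVFx 8 were higher and 10 lower of 37 tested, for RNY1+/+ ProteinFx 9 and 6 of 38, for RNY1-/- EVFx 11 and 10 of 36, and for RNY1-/- ProteinFx 8 and 3 of 38, to be read against the shares of all genes given above. The median log2 fold change over the tested genes of the list was -0.24, -0.47, -0.23 and -0.16 in that order, with -0.03 over all genes in each comparison. A receptor or enzyme that is high only after treatment was tested because of that level.

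Among the receptors of prostanoids and leukotrienes, 5 of 14 were tested after ProteinFx, and all 5 were DEGs in the higher direction with both genotypes. Of all genes tested, 8.96% were DEGs in that direction with RNY1+/+ ProteinFx and 6.31% with RNY1-/- ProteinFx. Ptgir, the prostacyclin receptor, rose with all fractions, from 9.03 ± 2.09 CPM in PBS to 128 ± 18.6 with RNY1+/+ EVFx and 154 ± 23.6 with RNY1-/- EVFx (SD, n = 4), which is a log2 difference of 4.00 (standard error 0.19, adjusted p = 4.28e-08) and 4.34 (standard error 0.20, adjusted p = 3.41e-08), and by 1.98 and 1.60 with RNY1+/+ and RNY1-/- ProteinFx. Ptger4, the EP4 receptor of prostaglandin E2, was 9.40 ± 1.34 CPM in PBS and rose with ProteinFx, to 50.4 ± 7.10 and 44.4 ± 4.33 CPM, or by 2.60 (standard error 0.16, adjusted p = 1.52e-07) for RNY1+/+ and 2.31 (standard error 0.14, adjusted p = 1.05e-06) for RNY1-/- on the log2 scale. With EVFx it was 0.14 and 0.43 from PBS (adjusted p = 0.513 and 0.0603), and the direct difference between RNY1+/+ ProteinFx and EVFx was 2.47 (standard error 0.13, adjusted p = 1.12e-09). Ptger2, the EP2 receptor of prostaglandin E2, rose by 1.44 and 1.40 with ProteinFx of RNY1+/+ and RNY1-/- and by 0.94 and 1.26 with EVFx (adjusted p at most 4.89e-04). Cysltr1, the receptor of cysteinyl leukotrienes, rose with ProteinFx by 1.89 (standard error 0.17, adjusted p = 3.90e-06) and 1.87 (standard error 0.16, adjusted p = 1.22e-05), and was -0.24 and 0.45 with RNY1+/+ and RNY1-/- EVFx (adjusted p = 0.388 and 0.0587).

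Among 19 genes of other lipoxygenases and of leukotriene processing and breakdown, the DEGs against PBS were in the lower direction: 4 of 8 tested with RNY1+/+ EVFx, 4 of 8 with RNY1+/+ ProteinFx, 4 of 7 with RNY1-/- EVFx and 1 of 8 with RNY1-/- ProteinFx. Of all genes tested, 8.2%, 12.4%, 13.5% and 7.99% were DEGs in the lower direction in these comparisons. Mgst3, a microsomal glutathione transferase that can conjugate leukotriene A4, fell in all 4, from 82.5 ± 26.1 CPM in PBS to 13.3 ± 1.87 and 10.1 ± 1.21 CPM with RNY1+/+ and RNY1-/- EVFx, 5.45 ± 1.16 with RNY1+/+ ProteinFx and 12.2 ± 2.33 with RNY1-/- ProteinFx. Its log2 fold changes in that order were -2.47, -2.80, -3.76 and -2.69 (adjusted p at most 2.51e-05). Dpep2, a dipeptidase that turns leukotriene D4 into E4, was -1.04, -1.18, -1.08 and -0.54 (adjusted p = 4.47e-05, 6.63e-06, 1.11e-05 and 0.0113).

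Of the 12 prostanoid synthases and catabolic enzymes, 8 were tested. By adjusted p 2 were higher and 4 lower with either EVFx, 6 were lower with RNY1+/+ ProteinFx and 2 were lower with RNY1-/- ProteinFx. Of all genes tested, 44.5% and 58.3% passed with RNY1+/+ and RNY1-/- EVFx, and 55.2% and 35.7% with RNY1+/+ and RNY1-/- ProteinFx. With either EVFx 1 was a DEG in the higher and 2 in the lower direction. With RNY1+/+ and RNY1-/- EVFx, 8.24% and 9.02% of all genes were higher DEGs and 8.2% and 13.5% lower ones. The log2 fold changes of those of the 8 that passed with ProteinFx were under 1 in size. Hpgds, the hematopoietic prostaglandin D synthase, was -1.42 (standard error 0.17, adjusted p = 6.00e-05) with RNY1+/+ EVFx and -1.01 (standard error 0.15, adjusted p = 1.68e-04) with RNY1-/- EVFx. Tbxas1, the thromboxane A synthase, was -1.18 (standard error 0.14, adjusted p = 5.19e-05) and -1.38 (standard error 0.16, adjusted p = 3.51e-05). Ptgr1, a reductase that inactivates prostaglandins and leukotriene B4, rose with EVFx by 2.13 (standard error 0.18, adjusted p = 4.20e-06) and 2.25 (standard error 0.18, adjusted p = 1.71e-06) and was -0.26 and -0.02 with ProteinFx (adjusted p = 0.149 and 0.941). After EVFx, the terminal synthases of prostaglandin D2 and thromboxane were thus lower while Ptges was higher.

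Of the other phospholipases A2, 4 of 13 were tested. DEGs were 2 higher and 1 lower with either EVFx, 1 and 1 with RNY1+/+ ProteinFx, and 1 and 0 with RNY1-/- ProteinFx. Of all genes, 8.24% and 8.2% were such DEGs with RNY1+/+ EVFx and 9.02% and 13.5% with RNY1-/- EVFx. The shares were 8.96% and 12.4% with RNY1+/+ ProteinFx and 6.31% and 7.99% with RNY1-/- ProteinFx. By adjusted p all 4 passed with RNY1+/+ ProteinFx, 2 higher and 2 lower, against 55.2% of all genes. Plaat3, an adipose phospholipase, rose by 3.13, 2.57, 2.13 and 2.06 with RNY1+/+ EVFx, RNY1-/- EVFx, RNY1+/+ ProteinFx and RNY1-/- ProteinFx (adjusted p at most 4.37e-04). Pla2g7, the platelet-activating factor acetylhydrolase, rose with EVFx by 2.30 and 2.06 (adjusted p = 2.15e-07 and 1.54e-07). In the handling and transport of arachidonic acid, Acsl1, a long-chain acyl-CoA synthetase, rose in all 4 groups, from 35.1 ± 2.88 CPM in PBS to 482 ± 78.5, 362 ± 77.2, 263 ± 101 and 93.5 ± 6.97 CPM (log2 fold changes 3.96, 3.62, 3.08 and 1.48, adjusted p at most 5.24e-06). Abcc1, an exporter of leukotriene C4, rose with EVFx by 1.94 (standard error 0.14, adjusted p = 1.12e-06) and 1.71 (standard error 0.12, adjusted p = 6.06e-07) and was lower with ProteinFx, at -0.89 (standard error 0.14, adjusted p = 2.35e-04) and -1.02 (standard error 0.13, adjusted p = 2.57e-04), for RNY1+/+ and RNY1-/- respectively. Mgll, the lipase that frees arachidonic acid from 2-arachidonoylglycerol, fell in all 4, by 2.48, 1.89, 2.27 and 1.80 on the log2 scale in the order used for Plaat3 (adjusted p at most 1.58e-04). Anxa1, an inhibitor of phospholipase A2, fell with EVFx by 1.43 and 0.76 (adjusted p = 2.04e-04 and 0.0083).

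**Figure D5:**
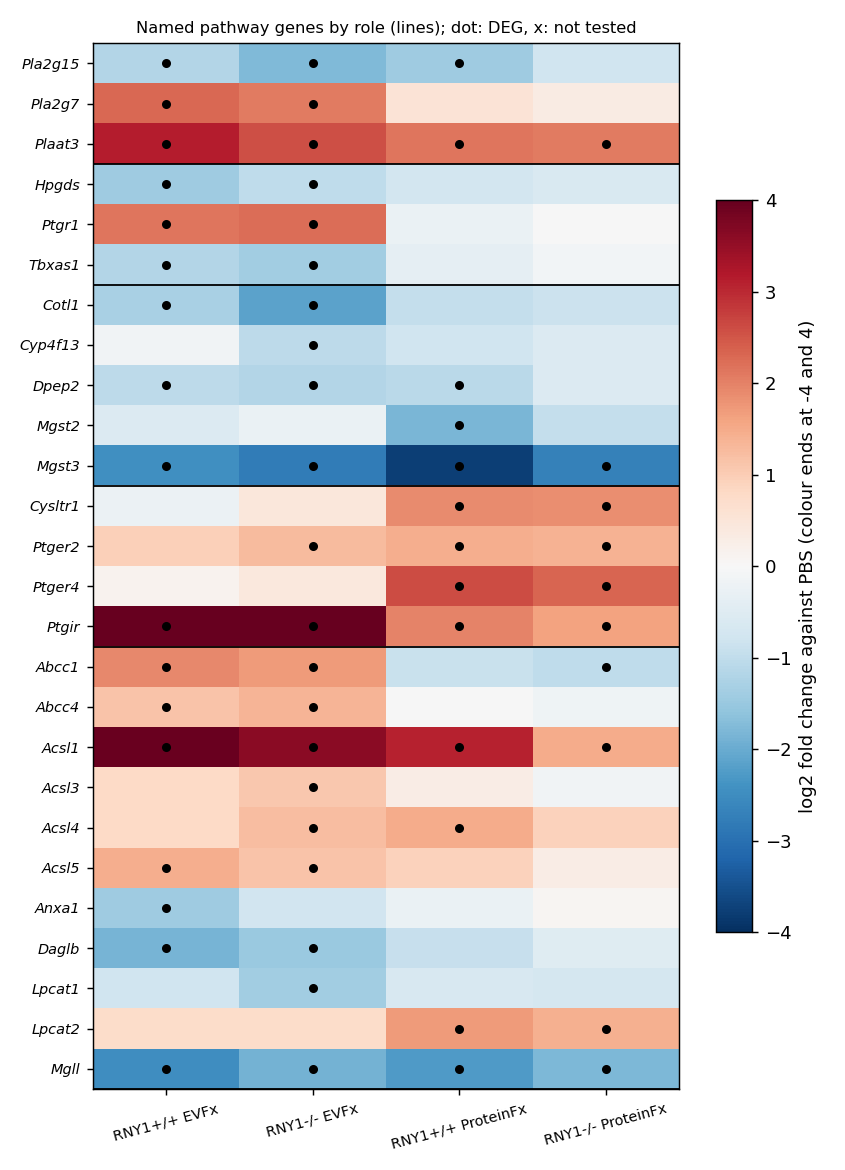
Log2 fold change against PBS (colour scale) of the named genes of the eicosanoid pathway (vertical axis, grouped by role) in the 4 treated groups (horizontal axis), with genes that met both DEG limits marked. The prostanoid and leukotriene receptors are on the higher side with ProteinFx, and Mgst3 and Mgll are on the lower side with all fractions.

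Between genotypes, 10 of the 36 tested genes of this list were higher and 10 lower by adjusted p with EVFx, all with log2 fold changes under 1 in size. With 52.1% of all genes passing the adjusted p in that comparison, 20 of 36 is close to the background. With ProteinFx 5 of the 38 tested genes were higher and 2 lower by adjusted p, against 5.57% of all genes, and 3 were DEGs, 2 higher and 1 lower, against 0.659% and 1.17% of all genes. The DEGs were Mgst3, higher with RNY1-/- (log2 fold change 1.08, standard error 0.20, adjusted p = 0.00764), Acsl1, lower (log2 fold change -1.59, standard error 0.21, adjusted p = 9.23e-04), and Cyp4f18, a leukotriene B4 hydroxylase, higher (log2 fold change 1.44, standard error 0.34, adjusted p = 0.0241). The interaction passed the adjusted p for 15 of 37, 9 positive and 6 negative, against 33% of all genes, and it was past both limits for 5, 3 positive and 2 negative, against 5.33% and 2.46% of all genes. These were at 1.41 (standard error 0.24, adjusted p = 0.00187) for Mgst3 and -1.25 (standard error 0.29, adjusted p = 0.00614) for Acsl1, and at 1.23, 1.18 and -1.02 for Pla2g15, Cyp4f13 and Acsl4 (adjusted p = 0.00588, 0.026 and 0.00598).

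The genes whose log2 level ran most like that of Ptgs2 over the 20 libraries, among 7553 genes with a mean of at least 10 CPM, were Lrrc8c (Pearson's r 0.986), Cxcl3 (0.984) and Akna (0.984). Their group means in the order PBS, RNY1+/+ EVFx, RNY1-/- EVFx, RNY1+/+ ProteinFx and RNY1-/- ProteinFx were 20.3, 73.9, 77.4, 41.9 and 35.0 CPM for Lrrc8c, a subunit of volume-regulated anion channels, and 0.21, 148, 166, 19.5 and 4.84 CPM for Cxcl3, a neutrophil chemokine. For Ptges they were Fabp3 (0.986), Cdc42ep2 (0.978) and Nfkbia (0.977), with means of 6.22, 53.9, 32.0, 23.8 and 11.2 CPM for Fabp3, a fatty acid binding protein, and 138, 1141, 901, 527 and 285 CPM for Nfkbia, the inhibitor of NF-kB. The 20 libraries fall into 5 groups, so a correlation over them takes in the differences between groups.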

How the data were processed

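RNA of 20 BMDM libraries, 4 in each of 5 treatment groups, was sequenced from the 3′ end of polyadenylated transcripts. The sample labels used here give no batch. According to the study's methods and the submitters' processing notes, the authors trimmed reads with fastp 0.24.0, aligned them with STAR 2.7.11 to GRCm39, removed duplicates by molecular identifier with UMIcollapse and counted by strand with featureCounts (Subread 2.1.1). The deposited table holds estimated counts, which are not whole where a read maps to several places and shares its count, and the CPM that the authors computed from them, which equal each count scaled to its library total. Library totals were 2510005 to 8277366 counts, so that 3 counts, the lowest number taken as measurable, stand for 0.362 to 1.20 CPM.

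Estimated counts were rounded to whole numbers. A comparison tested the genes that passed edgeR's filterByExpr and averaged 3 CPM or more across its 8 libraries, with edgeR 4.0.16 (R 4.3.3) using TMM scaling and the quasi-likelihood test, with Benjamini-Hochberg adjustment over all genes tested. A DEG had an adjusted p under 0.05 and a log2 fold change over 1 in size. There were 8 comparisons of 2 groups and 1 interaction over 16 libraries, each fitted on its own groups. Trends of fold change on transcript GC content and length were removed in an alternative with splines of 4 degrees of freedom; over 96% of the genes tested had a value. Other alternatives were DESeq2 1.42.0, scaling by library totals, other level filters, a replicate block, no limit on fold change, and leaving out libraries. Intervals of counts and shares are 95% exact or Wilson intervals. The quasi-likelihood test of edgeR gives no standard error. For its fits, standard errors were calculated from the log2 fold change and the F value of the test. The 95% intervals of fold changes were built from these standard errors. The edgeR step was checked on simulated data.

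The deviations of same-numbered libraries correlated at 0.13 to 0.38 between RNY1-/- EVFx and PBS. Between RNY1-/- ProteinFx and RNY1-/- EVFx they correlated at 0.22 to 0.40, and between RNY1-/- ProteinFx and PBS at 0.018 to 0.64. In every other comparison the lowest correlation was negative. The labels do not say what a number stands for, so any pairing rests on these correlations alone and is not established. The 10 enzymes and the lists of pathway and marker genes were chosen with earlier results of these data known. The text names every enzyme and, of the 72 pathway genes, those that were DEGs in a comparison with PBS with a mean of at least 10 CPM in a group, of which a selection by role is given in sentences and all are drawn; Cyp4f18 was below that level and was named after its values were seen. Promoter stretches come from RefSeq on GRCm38.p6, an older build than the one used for alignment, so no coordinate was carried between them. The table matched all 10 enzymes by symbol. Outliers in a group of 4 were looked for with Dixon's limit of 0.829.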

Additional observations from a re-analysis of the deposited data

Results flagged for a closer look

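Ptges in RNY1+/+ ProteinFx had 1 library far from the others, replicate 4 at 16.1 CPM, with 7.77 CPM as the next highest. Alox5ap in RNY1-/- EVFx had replicate 3 at 149 CPM, with 125 CPM as the next highest. These were 2 of the 44 sets of 4 libraries tested, each of 1 enzyme in 1 group, whose extreme library was past Dixon's limit. Not every enzyme and group was tested, and chance alone gives about 1 in 20.

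By the interaction test of edgeR, 4 of the 7 tested enzymes passed the adjusted p, against 33% of all 10445 genes. In these 4 the effect of donor genotype differed between ProteinFx and EVFx. The log2 interaction was -0.75 for Pla2g4a (adjusted p = 0.0112), which was higher with RNY1-/- than with RNY1+/+ EVFx (0.44) and at -0.30 with ProteinFx. For Ptgs2 it was -1.56 (adjusted p = 0.022), from 0.22 with EVFx and -1.30 with ProteinFx, neither of which passed by itself. For Ptges3 it was -0.50 (adjusted p = 0.00984), from 0.26 and -0.24. For Alox5ap it was 1.06 (adjusted p = 0.0026), from -0.15 and 0.91. With the GC and length trends removed, Pla2g4a and Alox5ap remained under an adjusted p of 0.05 and Ptgs2 and Ptges3 did not. The part of GC content in these differences was not tested further.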

How the results depend on the processing

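Of the 87 counts of DEGs among the enzymes recomputed under alternatives that leave out no single replicate, 78 were within 1.5 times the reported count. For RNY1-/- ProteinFx against PBS, 5 enzymes were DEGs with no filter, Ptges and Ptges2 being added. For RNY1-/- against RNY1+/+ EVFx the count of 0 became 1 with library totals (Ptges), 1 with filterByExpr only and 1 with no filter (Ptges2 in both), and 3 without the limit on fold change. For RNY1-/- against RNY1+/+ ProteinFx it was 4 without RNY1-/- ProteinFx replicates 3 and 4. The interaction count was 1 with the GC and length trends removed, 1 with them removed under the replicate block, and 4 without the limit on fold change. Leaving out each replicate in turn gave 4 to 5 DEGs for RNY1+/+ EVFx against PBS, 4 for RNY1+/+ ProteinFx, 5 to 6 for RNY1-/- EVFx and 3 for RNY1-/- ProteinFx, 0 to 1 between genotypes for EVFx and 2 to 4 for ProteinFx, 3 to 4 between fractions for RNY1+/+ and 4 for RNY1-/-, and 1 to 3 for the interaction. The count of 1 between genotypes for EVFx came without RNY1+/+ EVFx replicate 1 or RNY1-/- EVFx replicate 4, and the count of 4 for ProteinFx without RNY1-/- ProteinFx replicate 3. The interaction count of 1 came without RNY1+/+ EVFx replicate 4, RNY1+/+ ProteinFx replicate 4, RNY1-/- ProteinFx replicate 1 or RNY1-/- ProteinFx replicate 2.

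Of 536 recomputed log2 fold changes of single enzymes, 483 kept their direction and their side of the threshold, 9 no longer passed, 23 passed newly and 21 were reversed. Of the reversed ones, those that passed were Lta4h with the GC and length trends removed, at -0.27 for RNY1-/- EVFx and -0.28 for RNY1-/- ProteinFx against PBS, each with and without the replicate block. The others passed neither as reported nor when reversed. With the trends removed, and with the replicate block added, RNY1-/- against RNY1+/+ EVFx was -0.15 and -0.18 for Ptgs2, 0.12 and 0.13 for Alox5ap, and -0.025 and -0.027 for Lta4h. With library totals Lta4h was -0.20 for RNY1-/- EVFx and -0.061 for RNY1-/- ProteinFx against PBS, and between the RNY1-/- fractions Alox5ap was 0.16 and Lta4h 0.14. RNY1+/+ EVFx against PBS was 0.017 with DESeq2 and 0.040 with no filter for Ptges2, and 0.0090 with no filter for Lta4h. Without RNY1-/- ProteinFx replicates 1 and 2, Lta4h was -0.034 against PBS and Pla2g4a 0.0083 between genotypes for ProteinFx. Without replicates 3 and 4, Alox5ap was 0.16 and Lta4h 0.018 between the RNY1-/- fractions. Leaving out single replicates also turned the sign of Ptges2 in RNY1+/+ EVFx (-0.29 to 0.21) and Lta4h in RNY1-/- ProteinFx (-0.037 to 0.044) against PBS, Ptgs2 between genotypes for EVFx (-0.037 to 0.39), and Alox5ap (-0.14 to 0.092) and Lta4h (-0.068 to 0.021) between the RNY1-/- fractions. The cause was not tested. The replicate block left the DEG counts of the enzymes as they were, and it brought Ptges3 in RNY1-/- ProteinFx against PBS to 0.36 (adjusted p = 0.0019) and the Ptges interaction to -0.80 (adjusted p = 0.041). It changed no other call of an enzyme. With all 4 other groups taken in, 0 of 20 libraries correlated best with their own number in every one of them.

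Over all genes, these settings moved the number of DEGs by over 1.5 times. With no filter it went from 1775 to 3009 for RNY1+/+ EVFx, from 2311 to 3498 for RNY1+/+ ProteinFx and from 2417 to 3798 for RNY1-/- EVFx against PBS, and from 1413 to 2563 and from 941 to 1539 between fractions for RNY1+/+ and RNY1-/-. The 1552 DEGs of RNY1-/- ProteinFx against PBS became 2332 without its replicates 1 and 2 and 934 without its replicates 3 and 4. The 243 between genotypes for EVFx became 94 with the GC and length trends removed, 85 with the replicate block added, 99 without RNY1+/+ EVFx replicate 4, 367 with filterByExpr only and 631 with no filter. The 191 for ProteinFx became 401 without RNY1-/- ProteinFx replicates 3 and 4, 114 without RNY1+/+ ProteinFx replicate 4 and 324 with no filter. The 814 of the interaction became 426 with the trends removed, 446 with the replicate block added, 539 without RNY1-/- ProteinFx replicate 1, 487 without its replicate 2 and 1401 with no filter. Without the limit on fold change the numbers were 4807, 5981, 6257 and 3878 against PBS for RNY1+/+ EVFx, RNY1+/+ ProteinFx, RNY1-/- EVFx and RNY1-/- ProteinFx, 5379 and 583 between genotypes for EVFx and ProteinFx, 6608 and 3046 between fractions for RNY1+/+ and RNY1-/-, and 3449 for the interaction. Depth limits Alox5, Ltc4s and Ptges2, whose counts were at most 2, 9 and 32 in a library.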
